A study of Mus musculus with 6 samples.

Results

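Lysyl oxidases and tissue transglutaminase tie collagen and elastin molecules together outside the cell, and 6 of their genes were followed in cultured stromal fibroblasts of the mouse mammary gland. The genes were chosen by symbol: Lox, Loxl1, Loxl2, Loxl3, Loxl4 and Tgm2. All 6 of them were among the 23337 genes counted, and all 6 were among the 13442 that passed the filter on low counts. The compared groups were 3 Sharpin-cpdm libraries (genotype cpdm/cpdm, Sharpin deficient) and 3 wild-type libraries (wt/wt), both on the C57BL/KaLawRij strain, from mice 7 weeks old. SHARPIN protein helps to build linear ubiquitin chains and also holds integrins inactive, and the cpdm allele is an inherited change in Sharpin that every cell of the animal carries. Each library came from pooled glands of 3 mice, digested with collagenase, enriched by centrifugation and grown to confluence at passage 0. The cells had grown in medium with serum before RNA was taken, and floating cells had been discarded. A comparison of these groups is one of pooled cultures, not of single animals or of tissue. The series is titled for collagen architecture and ductal invasion, and the cross-linking genes were compared in that setting.

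The 5 lysyl oxidases are secreted enzymes that carry copper. They oxidise lysine side chains of collagen and elastin to aldehydes, which then condense into covalent cross-links between neighbouring molecules. Lox and Loxl1 carry a propeptide that is cut off after secretion, whereas Loxl2, Loxl3 and Loxl4 carry scavenger receptor domains in front of the same catalytic domain. Tgm2 encodes tissue transglutaminase, an unrelated enzyme that joins glutamine to lysine side chains and that also binds fibronectin and integrins at the cell surface. In connective tissue, more cross-linking makes a collagen network stiffer and harder to digest.

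The shared catalytic domain is visible in the coding sequences. The 60 bases that end inside the codons of the histidine-rich copper-binding loop are shown for Loxl1 to Loxl4, because this loop is shared by the whole family and because similarity of this kind bears on whether short reads can be told apart. Sequences are those of GENCODE M21 transcripts on GRCm38 (mm10), written 5′ to 3′ on the coding strand, with capitals for bases that were identical in all 4.
Loxl1: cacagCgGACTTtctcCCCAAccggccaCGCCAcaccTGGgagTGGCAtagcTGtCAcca
Loxl2: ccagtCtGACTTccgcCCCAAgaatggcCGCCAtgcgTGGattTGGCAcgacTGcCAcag
Loxl3: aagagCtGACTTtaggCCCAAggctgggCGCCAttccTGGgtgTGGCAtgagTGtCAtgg
Loxl4: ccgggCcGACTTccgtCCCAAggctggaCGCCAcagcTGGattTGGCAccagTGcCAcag
These stretches lie at chr9:58294359-58294418 on the minus strand (Loxl1, exon 3 of 7), chr14:69682279-69682338 on the plus strand (Loxl2, exon 10 of 14), chr6:83049958-83050017 on the plus strand (Loxl3, exon 10 of 14) and chr19:42599877-42599936 on the minus strand (Loxl4, exon 11 of 15). Of the 60 bases, 28 were identical in all 4 genes shown. The stretch of Lox is not shown, but it was compared in pairs with the others. Over the same stretch the closest pairs were Loxl2 with Loxl4 and Lox with Loxl1, each with 47 of 60 bases identical (78.3%). The most distant pair was Lox with Loxl4, with 29 of 60 (48.3%).

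Windows of sequence were shared with other genes but not among the 6. No window of 50 bases of any member's longest transcript occurred in another member (0 windows). Loxl2 has a near-identical neighbour: 2090 of its 2282 coding windows of 50 bases (91.6%), and 2040 of 2232 windows of 100 bases (91.4%), occurred unchanged in Gm21451, which the annotation lists as an unprocessed pseudogene 128780 bases upstream on the same strand of chromosome 14. The Loxl2 stretch shown above belongs to this shared part, with 11 of its 11 windows found in Gm21451. Over the longest Loxl2 transcript the share was 43.6% at 50 bases. The deposited counts leave out reads that align to more than 1 place, so Loxl2 reads from the shared windows may be missing from its level. How many were left out was not tested, and Gm21451 was not analysed here. Loxl3 and Htra2, on opposite strands, share 535 exon bases (11.6% of those of Loxl3), and Tgm2 and Rprd1b, also on opposite strands, share 370 (8.03%). Tgm2 also shares 633 exon bases (13.7%) with Gm20412, a processed transcript on the opposite strand that was not analysed here. The library kit does not mark strand, so reads from these shared bases cannot be told apart. The deposited counts hold a separate row for ambiguous reads, so reads over bases shared with Htra2 or Rprd1b may be missing from both genes. How such reads were counted was not tested. Htra2 averaged 51.5 ± 8.34 CPM in the Sharpin-cpdm pools and 50.4 ± 3.87 CPM in the wild-type pools. Rprd1b averaged 32.3 ± 1.11 CPM in the Sharpin-cpdm pools and 32.4 ± 2.24 CPM in the wild-type pools (SD, n = 3 each). Both partners had fewer counts than the gene they overlap. CPM are counts scaled by the library's total of gene counts, as throughout, and are not scaled by gene length.

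Depth was even, with 13570649 to 14940100 gene counts in the Sharpin-cpdm libraries and 13642440 to 15656196 in the wild-type libraries. Sharpin itself stood at 10.5, 9.13 and 9.50 CPM in Sharpin-cpdm pools 1 to 3, against 24.5, 25.2 and 31.2 CPM in wild-type pools 1 to 3, so the groups did not overlap and the direction matched the labels. The log2 fold change of Sharpin was -1.49 ± 0.14 (SE; adjusted p 0.272) in the edgeR quasi-likelihood fit of genotype alone and -1.48 ± 0.12 (adjusted p 0.00595) with the replicate number as a block.

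Lox was by far the most abundant member, and the order of the 6 genes, as counted, was the same in every library. Levels were compared between genes as CPM per kilobase of annotated exons. Lox stood at 608 ± 70.9 in Sharpin-cpdm and 657 ± 86.7 CPM per kilobase in wild type (SD, n = 3 each), which placed it at rank 30 of 13316 genes by its mean over the 6 libraries. Loxl1, which is best known for elastic fibres, followed with 269 ± 10.5 CPM per kilobase in Sharpin-cpdm and 269 ± 4.61 in wild type. Loxl2, which also cross-links basement membrane collagen, had 147 ± 54.7 in Sharpin-cpdm and 138 ± 59.7 in wild type, a level that may lack reads shared with its copy. Loxl3 had 98.4 ± 13.9 in Sharpin-cpdm and 78.2 ± 14.5 in wild type. Tgm2 had 46.1 ± 13.7 in Sharpin-cpdm and 43.2 ± 14.7 in wild type. Loxl4 was the least abundant, at 9.38 ± 1.13 CPM per kilobase in Sharpin-cpdm and 8.59 ± 1.10 in wild type. Of the ranked genes 63.1% lay below Loxl4, against 92.8% below Tgm2 and 97.1% or more below each of the other 4.

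Neighbours in this order were not equally far apart. Lox and Loxl1 were separated in every library, with the lowest Lox value (554 CPM per kilobase) above the highest Loxl1 value (277). The lowest Loxl1 value (257) lay above the highest Loxl2 value (208). The counts of Loxl2 may lack reads shared with its copy but were divided by its full exon length, so its place in the order is uncertain. Loxl2 and Loxl3 were not separated beyond their spread: Loxl2 ranged from 101 to 208 and Loxl3 from 62.1 to 114 CPM per kilobase. The lowest Loxl3 value of 62.1, in wild-type library 3, lay just above the highest Tgm2 value of 61.4, in Sharpin-cpdm library 2. Tgm2 ranged down to 26.4 and Loxl4 only up to 10.7.

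**Figure D1:**
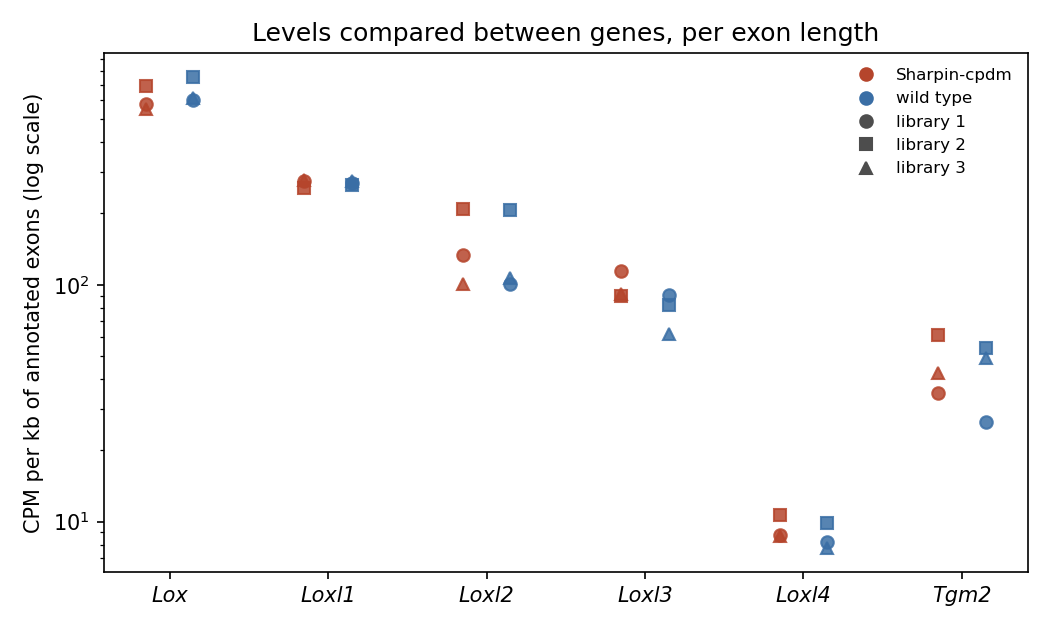
CPM per kilobase of annotated exons (log axis) for each gene in the 3 Sharpin-cpdm (left points) and 3 wild-type libraries (right points), with the library number given by the symbol. Lox lies highest and Loxl4 lowest in all 6 libraries, and the ranges of Loxl2 (101 to 208) and Loxl3 (62.1 to 114) overlap.

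None of the 6 genes differed between genotypes by the threshold of the test. In the edgeR fit of genotype alone, 0 of the 6 members were called at an adjusted p under 0.05, beside 0% of the 13442 tested genes, and 0 of 6 had an unadjusted p under 0.05, beside 2.28% of all genes. DESeq2 and limma-voom without the block also called 0 of the 6. Over all genes DESeq2 called 2 higher and 8 lower, and limma-voom 0. With the replicate number as a block, edgeR's test called 0 of 6 beside 2.51% of all genes, with 2 of 6 at an unadjusted p under 0.05 (Lox and Loxl3) beside 17.3% of all genes, and limma-voom called 0. DESeq2 with the block called 1, Loxl3. Over all genes, DESeq2 with the block called 53 higher and 288 lower, and limma-voom with the block 63 and 316. The median log2 fold change of the 6 was 0.10 with the block, beside -0.0017 over all tested genes. The groups of 3 overlapped for every member, whereas 3.35% of all genes were higher and 2.59% lower without overlap, 5.94% in either direction. In 3 of the 6 the pairs of same-numbered libraries all went one way, beside 41.2% of all genes.

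Lox stood at 2782, 3289 and 2646 CPM in Sharpin-cpdm pools 1 to 3, against 2870, 3617 and 2934 CPM in wild-type pools 1 to 3. It was lower in Sharpin-cpdm in each same-numbered pair, by small amounts, with log2 ratios of -0.05, -0.14 and -0.15. The log2 fold change was -0.12 ± 0.17 (SE, n = 3 each) without the block (adjusted p 1, edgeR), and -0.12 ± 0.05 with the block, with an adjusted p of 0.270. The 95% interval with the block ran from -0.24 to -0.0057, a level between 0.847 and 0.996 times that of wild type. Without the block the interval was 0.687 to 1.23 times. Since 18.5% of all tested genes were lower in all 3 pairs, 1 such gene among 6 is near the background.

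Loxl1 was nearly constant. It had 900, 848 and 915 CPM in Sharpin-cpdm pools 1 to 3 and 888, 870 and 901 CPM in wild-type pools 1 to 3. Its log2 fold change was -0.01 ± 0.04 with the block (edgeR adjusted p 0.926), and the 95% interval ran from -0.11 to 0.088, or 0.927 to 1.06 times the wild-type level. Without the block the interval was 0.854 to 1.15 times.

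Loxl2 varied more between replicate numbers than between genotypes. It had 718, 1124 and 549 CPM in Sharpin-cpdm pools 1 to 3, against 545, 1120 and 579 CPM in wild-type pools 1 to 3. Library 2 of each genotype was the highest of its group, and the ratio of Sharpin-cpdm to wild type was above 1 only in pairs 1 and 2 (log2 0.40 and 0.0051, against -0.08 in pair 3). The log2 fold change was 0.08 ± 0.39 without the block, with a 95% interval from 0.554 to 2.03 times the wild-type level, and 0.10 ± 0.10 with it (edgeR adjusted p 0.661, 0.912 to 1.25 times). The unblocked interval is wide enough to hold a doubling of Loxl2.

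Loxl3, which cross-links collagen and elastin and is best known from palate, eye and skeletal development, had the largest difference of the 6. It stood at 527, 413 and 420 CPM in Sharpin-cpdm pools 1 to 3, against 415, 380 and 286 CPM in wild-type pools 1 to 3. Sharpin-cpdm was higher in each pair, with log2 ratios of 0.34, 0.12 and 0.55, but the groups overlapped, as wild-type library 1 lay above Sharpin-cpdm library 2. The log2 fold change was 0.32 ± 0.17 without the block (adjusted p 1, edgeR), and 0.33 ± 0.07 with it, with an adjusted p of 0.0861. The blocked 95% interval was 1.11 to 1.42 times the wild-type level, and the unblocked one 0.94 to 1.65 times. The call depended on the tool: with the block, DESeq2 gave an adjusted p of 0.0325 and edgeR with offsets for GC content and gene length one of 0.0374. Htra2, whose exons overlap those of Loxl3, had a log2 fold change of 0.01 ± 0.07 with the block.

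Loxl4 was low but measured with 462 to 648 counts a library, a counting error of 3.93% to 4.65%. It had 36.9, 45.0 and 36.7 CPM in Sharpin-cpdm pools 1 to 3 and 34.7, 41.4 and 32.5 CPM in wild-type pools 1 to 3. It too was higher in each pair (log2 0.09, 0.12 and 0.18). The log2 fold change was 0.12 ± 0.15 without the block and 0.12 ± 0.05 with it (adjusted p 0.333, edgeR). Of the 6 genes 2, Loxl3 and Loxl4, were higher in all 3 pairs, beside 22.7% of all tested genes.

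Tgm2 had 160, 283 and 195 CPM in Sharpin-cpdm pools 1 to 3, against 122, 249 and 227 CPM in wild-type pools 1 to 3. The pairs went both ways, with log2 ratios of 0.40, 0.19 and -0.22. The log2 fold change was 0.09 ± 0.33 without the block and 0.11 ± 0.12 with it (adjusted p 0.690, edgeR). The blocked 95% interval was 0.887 to 1.31 times the wild-type level, and the unblocked one 0.609 to 1.85 times.

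**Figure D2:**
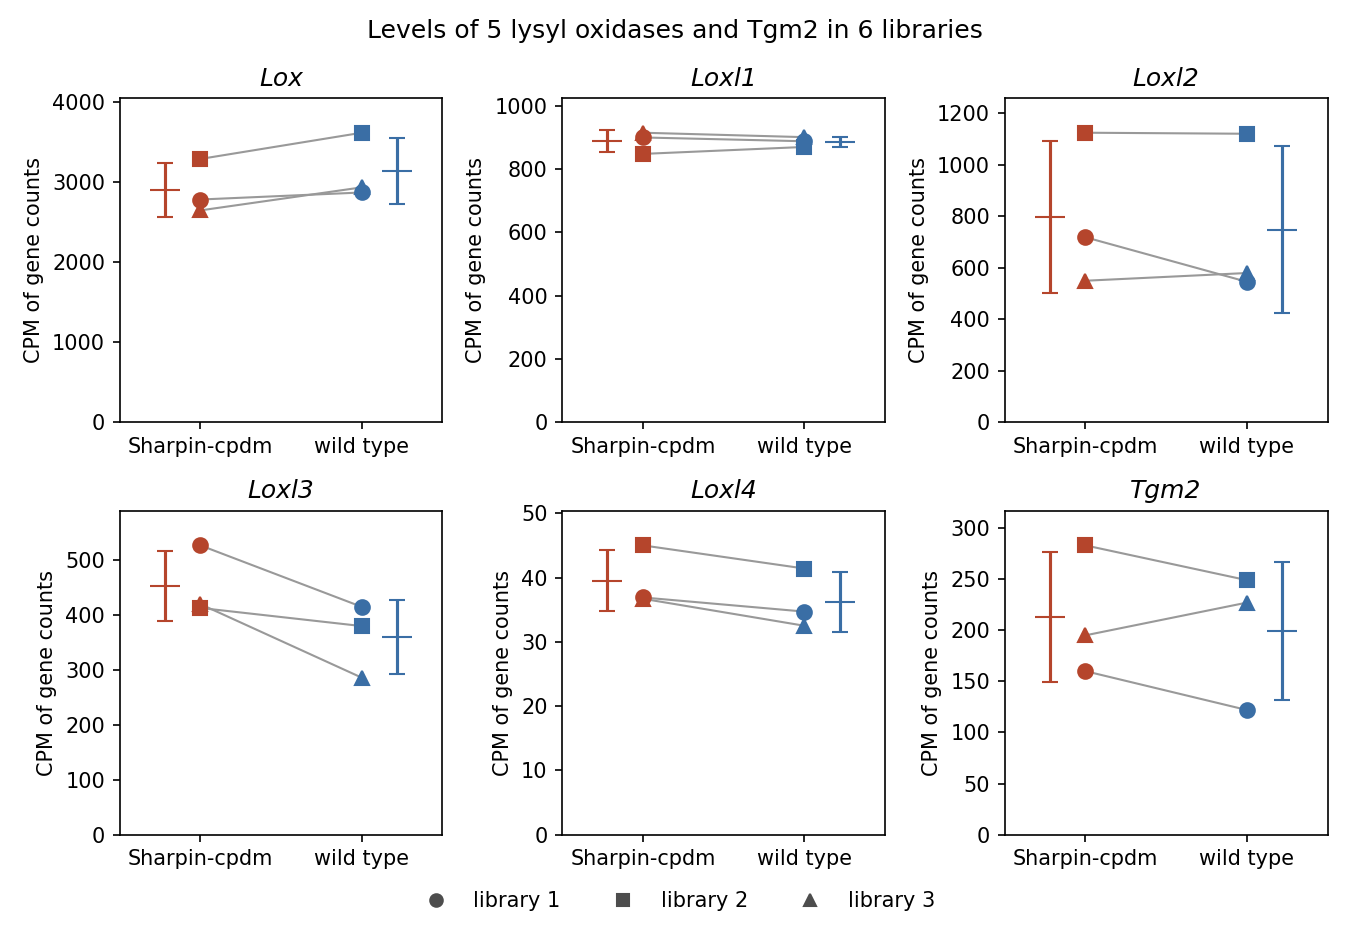
CPM of each gene in the Sharpin-cpdm (left) and wild-type (right) libraries, with lines joining libraries of the same number and side bars for the mean ± SD of 3. The groups overlap for all 6 genes, and library 2 is the highest of its group for Lox, Loxl2, Loxl4 and Tgm2 in both genotypes.

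**Figure D3:**
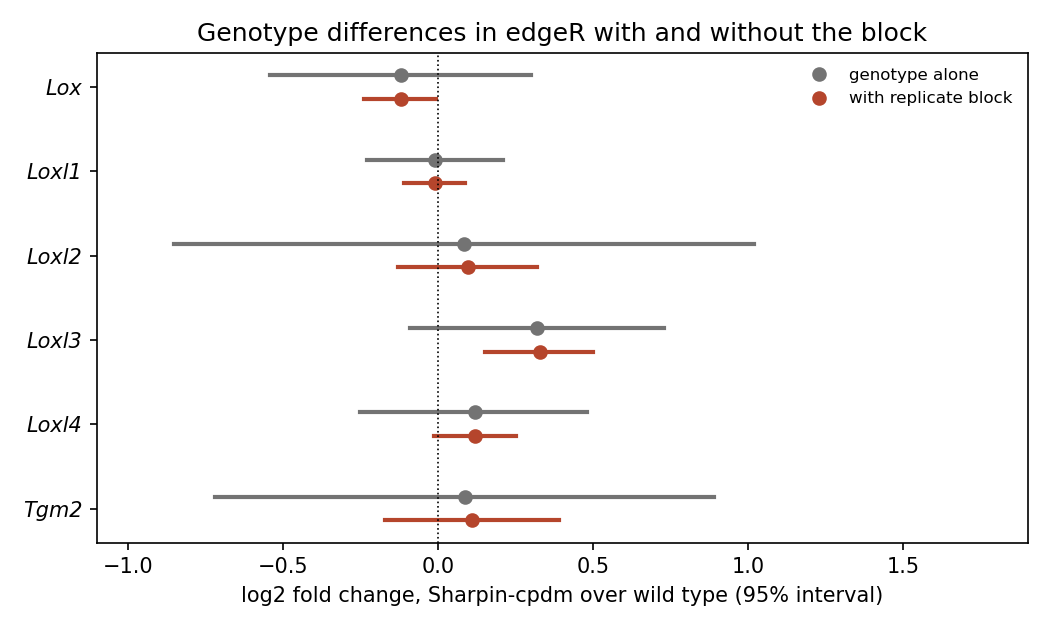
Log2 fold change of Sharpin-cpdm over wild type with its 95% interval, from edgeR for genotype alone (grey) and with the replicate block (red). With the block the intervals of Lox (-0.24 to -0.0057) and Loxl3 (0.15 to 0.50) leave out 0, although neither gene passed after adjustment over all 13442 genes.

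For all 6 genes the range between replicate numbers was larger than the fitted difference between genotypes, as a range over 3 set beside a difference of 2 and without a test. Taking the geometric mean of the same-numbered libraries, Loxl2 stood at 625, 1122 and 564 CPM for numbers 1 to 3, a 1.99-fold range, and Tgm2 at 140, 265 and 210 CPM, a 1.9-fold range. Both lay high among the tested genes, of which 87.8% and 86.1% had a smaller range between numbers. Lox, Loxl3 and Loxl4 had ranges of 1.24-fold, 1.35-fold and 1.25-fold, with 44.0%, 59.3% and 46.0% of genes below them. Loxl1 was among the steadiest, at 1.06-fold, with 5.58% of genes below it. A high second library was also seen for Ctgf, a secreted growth factor target of TGF-beta and YAP named here after its values were seen. Ctgf had 915, 2520 and 527 CPM in Sharpin-cpdm pools 1 to 3 and 773, 2491 and 564 CPM in wild-type pools 1 to 3. Markers of macrophages, cells known to hold much Tgm2, summed over all 7 listed genes to 132, 354 and 206 CPM in Sharpin-cpdm pools 1 to 3 and 66.6, 413 and 165 CPM in wild-type pools 1 to 3. Lyz2 made up most of each sum, with 102, 263 and 158 CPM in Sharpin-cpdm pools 1 to 3 and 46.3, 295 and 118 CPM in wild-type pools 1 to 3. Ptprc and Cd68 were highest in Sharpin-cpdm pool 3, unlike the other macrophage markers, which were highest in pool 2. Tgm2 was lowest in the libraries with the lowest and highest in those with the highest macrophage sum of each genotype. This sum mostly follows Lyz2. The order was not particular to macrophage markers, and the collagen gene Col4a1, named after its values were seen, had it too. Col4a1 had 1627, 3792 and 1758 CPM in Sharpin-cpdm pools 1 to 3 and 1917, 3805 and 2217 CPM in wild-type pools 1 to 3. The part of macrophages in the Tgm2 level was not tested. In cultures of mixed cells, fewer cells of a type and less RNA per cell cannot be told apart. The 19 endothelial markers, from another cell type rich in Tgm2, summed to 632, 800 and 921 CPM in the Sharpin-cpdm pools in order of number, against 827, 1379 and 1458 CPM in the wild-type pools.

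As a share of the summed lysyl oxidase level per kilobase, Lox made up less in Sharpin-cpdm. Lox held 52.4%, 54.9% and 53.6% in Sharpin-cpdm pools 1 to 3, against 56.2%, 57.3% and 57.7% in wild-type pools 1 to 3, so the groups did not overlap. Loxl3 held 8.76% ± 1.58 in Sharpin-cpdm and 6.84% ± 1.40 in wild type, with overlapping groups. Loxl4 held 0.789%, 0.852% and 0.843% in Sharpin-cpdm pools 1 to 3 and 0.770%, 0.744% and 0.724% in wild-type pools 1 to 3, again without overlap. Loxl1 and Loxl2 had shares of 24.0% ± 3.21 and 12.8% ± 3.45 in Sharpin-cpdm, and of 23.6% ± 3.15 and 11.7% ± 3.44 in wild type (SD, n = 3 each). The summed level itself was 1132 ± 112 CPM per kilobase in Sharpin-cpdm and 1151 ± 147 in wild type. In CPM the groups overlapped for every member, Lox and Loxl4 included, while 5.94% of all tested genes did not overlap in either direction. No such background was taken for shares, so how unusual their separation is was not tested. Shares sum to a whole, so a lower share of 1 gene brings higher shares of others, and they are given as a description without a test. They also rest on a Loxl2 level that may lack reads shared with its copy.

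**Figure D4:**
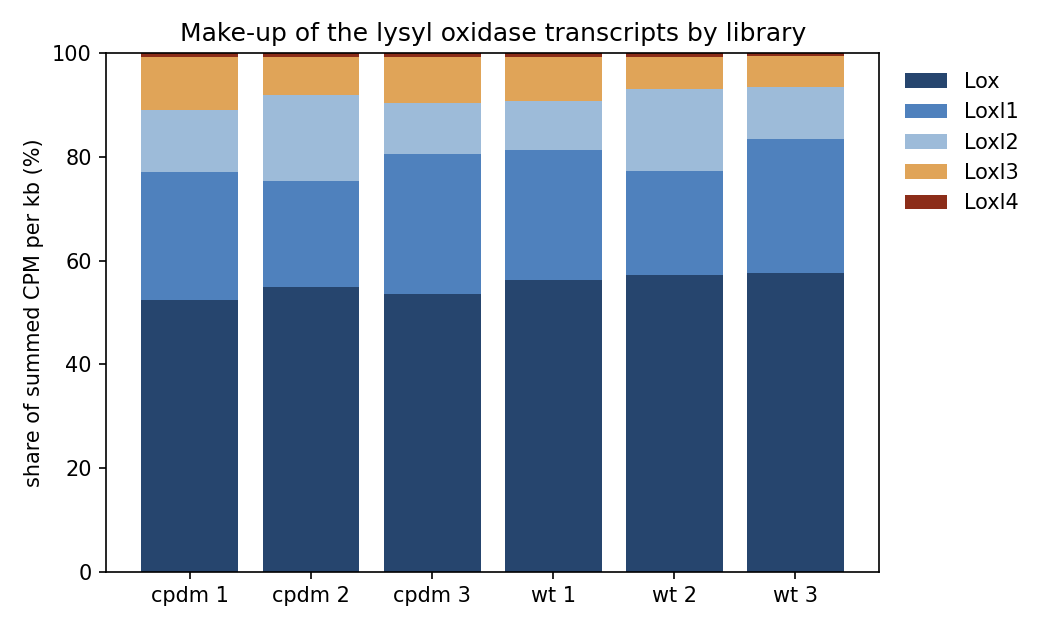
Share of each lysyl oxidase in the summed CPM per kilobase of the 5 genes (percent, stacked), for Sharpin-cpdm pools 1 to 3 and then wild-type pools 1 to 3. Lox holds 52.4% to 54.9% in Sharpin-cpdm and 56.2% to 57.7% in wild type, and the Loxl2 segment is widest in library 2 of each genotype.

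The other genes of the pathway were taken from lists, and among the substrates of these enzymes elastin fell. In what follows, fell and rose refer to edgeR's test with the block, in which 2.11% of all genes were lower and 0.394% higher, while 17.3% had an unadjusted p under 0.05 in either direction. Without the block, 0 genes of any list were called. Of 10 tested substrate genes 1 fell and 0 rose, and DESeq2 and limma-voom with the block each called 2 lower. In edgeR with the block 6 of the 10 had an unadjusted p under 0.05 (1 higher and 5 lower), beside 17.3% of all genes. Eln, which encodes elastin, had 198, 280 and 232 CPM in Sharpin-cpdm pools 1 to 3 and 335, 414 and 371 CPM in wild-type pools 1 to 3, without overlap. Its log2 fold change was -0.68 ± 0.05 (adjusted p 0.00595, edgeR). The other substrates did not pass and went both ways, and those given here were named after their values were seen. Col11a1, a minor fibrillar collagen, had 162, 184 and 118 CPM in the Sharpin-cpdm pools in order of number, against 142, 135 and 48.4 CPM in the wild-type pools, a log2 fold change of 0.61 ± 0.18 (edgeR adjusted p 0.159). Col3a1, a major fibrillar collagen, had -0.39 ± 0.08 (edgeR adjusted p 0.0598), and Col5a3, Col4a1 and Col4a2 lay between -0.25 and -0.19. Of the 10 fold changes 3 were above 0 and 7 below, with a median of -0.14.

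Genes that modify collagen lysines before cross-linking had 0 calls among 7 in the blocked edgeR fit, with 4 at an unadjusted p under 0.05 (2 higher and 2 lower, beside 17.3% of all genes), and 0 in DESeq2 and limma-voom with the block. Plod1, a lysyl hydroxylase, averaged 290 ± 60.1 CPM in the Sharpin-cpdm pools and 342 ± 99.6 CPM in the wild-type pools (log2 fold change -0.24 ± 0.07, edgeR adjusted p 0.145). Glt25d2, a collagen galactosyltransferase, had -0.95 ± 0.26 at levels of 0.797 to 2.46 CPM (edgeR adjusted p 0.134).

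Among 12 tested genes that mature lysyl oxidase or hold it on the matrix, Adamts2 fell and 0 rose. In the same edgeR fit 9 of the 12 had an unadjusted p under 0.05 (5 higher and 4 lower), beside 17.3% of all genes. Adamts2, the procollagen amino-propeptidase, which can also cleave Lox, had 582, 428 and 758 CPM in Sharpin-cpdm pools 1 to 3 and 739, 577 and 1104 CPM in wild-type pools 1 to 3. Its log2 fold change was -0.45 ± 0.06 (adjusted p 0.0185, edgeR). Bmp1, the main proteinase that releases active Lox, had 1038 ± 71.2 CPM in the Sharpin-cpdm pools and 1088 ± 94.8 CPM in the wild-type pools (log2 fold change -0.08 ± 0.05, edgeR adjusted p 0.463), named after its values were seen. Fibronectin and periostin, both scaffolds for Lox and Bmp1, had groups that did not overlap but missed the threshold, and were named after their values were seen: Fn1 had 0.32 ± 0.07 and Postn 0.25 ± 0.05, with edgeR adjusted p 0.0706 and 0.0783. DESeq2 with the block called 3 genes of this list higher and 1 lower.

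Copper handling genes, needed to load the lysyl oxidases, had 0 calls among 9 in the blocked edgeR fit (4 at an unadjusted p under 0.05, all lower, beside 17.3% of all genes), and 0 in DESeq2 and limma-voom with the block. The 2 smallest p belonged to the metallothioneins Mt1 and Mt2, which bind copper and zinc, at -0.26 ± 0.08 and -0.39 ± 0.12. Atp7a, the pump that delivers copper to secreted enzymes, had 45.7 ± 6.78 CPM in the Sharpin-cpdm pools and 48.1 ± 8.13 CPM in the wild-type pools, named after its values were seen.

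Tgm2 took most of the transglutaminase counts of these cultures. Of the 8 other listed genes of its family 3 passed the low-count filter. The summed level of all 8 lay between 12.5 and 14.4 CPM in Sharpin-cpdm and between 13.6 and 20.1 CPM in wild type, and Tgm6 and Tgm7 had 0 counts in all 6 libraries. None was called in the blocked edgeR fit (0 of 3, with 0 at an unadjusted p under 0.05), nor in DESeq2 or limma-voom with it. Of 9 tested partners of the protein, Itgb3 fell and 0 rose, while DESeq2 with the block called 1 lower and 1 higher. In edgeR with the block 4 of the 9 had an unadjusted p under 0.05 (1 higher and 3 lower), beside 17.3% of all genes. Itgb3, the integrin beta 3 subunit, had 117, 132 and 110 CPM in Sharpin-cpdm pools 1 to 3 and 154, 177 and 147 CPM in wild-type pools 1 to 3, a log2 fold change of -0.42 ± 0.04 (adjusted p 0.0103, edgeR). Fibronectin, its substrate and partner, is given above.

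Regulators known to act on these genes, among them TGF-beta, hypoxia-inducible factors, SRF and YAP, had 0 calls among 23 in the blocked edgeR fit (8 at an unadjusted p under 0.05, 4 higher and 4 lower, beside 17.3% of all genes), 1 in DESeq2 and 0 in limma-voom with the block, and a median log2 fold change of -0.02. Tgfbr2, a TGF-beta receptor, and Twist1, a mesenchymal transcription factor, had the smallest p, with -0.21 ± 0.05 and -0.30 ± 0.07 and edgeR adjusted p 0.0902 and 0.116. Of 13 hypoxia-regulated genes, Adm, which encodes the vasodilator adrenomedullin, fell and 0 rose. In edgeR with the block 1 of the 13 had an unadjusted p under 0.05, beside 17.3% of all genes. Adm had 45.0, 14.4 and 79.4 CPM in the Sharpin-cpdm pools in order of number, against 75.8, 22.4 and 185 CPM in the wild-type pools, lower in each pair although the groups overlapped (log2 fold change -0.94 ± 0.12, edgeR adjusted p 0.0209).

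**Figure D5:**
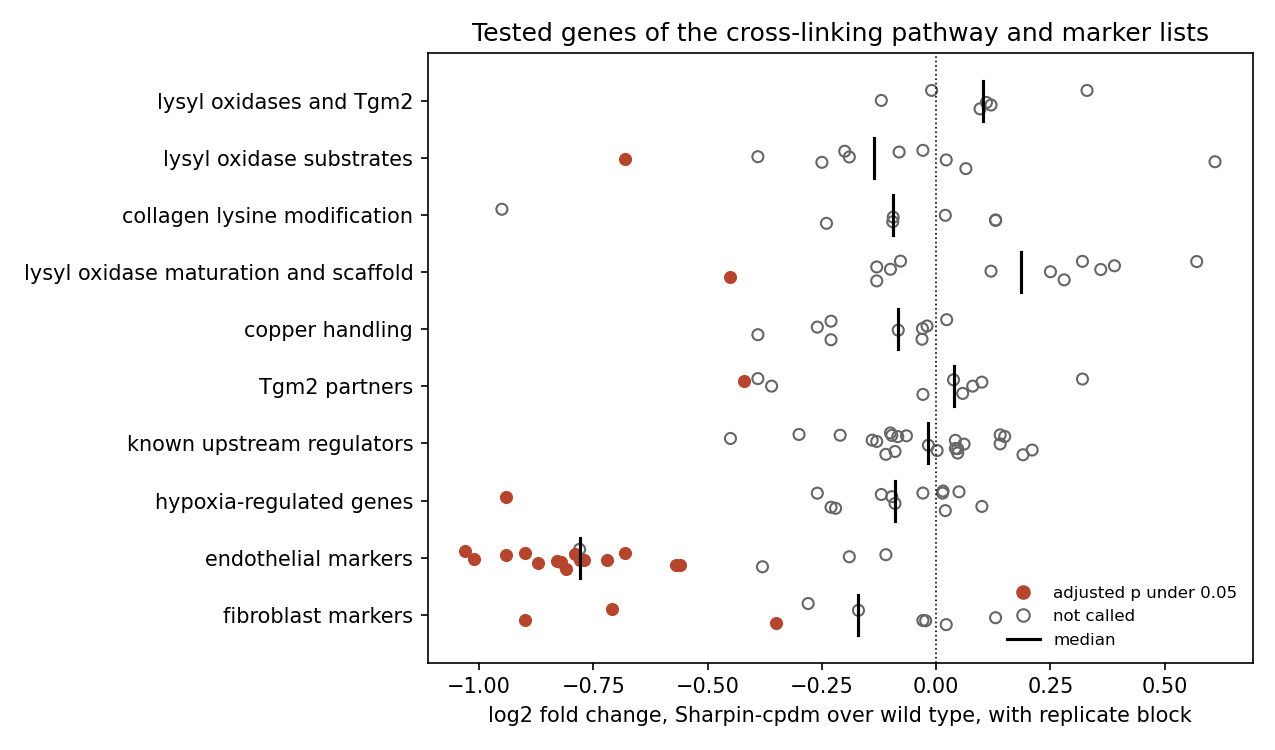
Log2 fold change of Sharpin-cpdm over wild type with the replicate block for the tested genes of 10 lists, with filled points for an adjusted p under 0.05 and a bar for the list's median. The 6 cross-linking genes hold 0 called genes and a median of 0.10, the substrates 1 called gene (Eln), and the endothelial markers 15 of 19 with a median of -0.78.

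The label of stromal fibroblasts was checked against markers, and markers of other cell types moved in the same libraries. The counts below stand beside 2.11% of all genes lower and 0.394% higher in the blocked edgeR fit. Of all genes, 17.3% had an unadjusted p under 0.05 in that fit. All 9 fibroblast markers were counted, and 3 of them fell (Lum, Dcn and Fap). Of the 9 fold changes 2 were above 0 and 7 below, with a median of -0.17. At an unadjusted p under 0.05 there were 6 of the 9, 1 higher and 5 lower. Col1a1 and Col1a2 averaged 22042 ± 1755 and 20081 ± 1097 CPM in Sharpin-cpdm, and 22317 ± 2079 and 19644 ± 1571 CPM in wild type. Of 19 endothelial markers 15 fell and 0 rose, with sums of 632 to 921 CPM in Sharpin-cpdm and 827 to 1458 CPM in wild type. Of 7 pericyte markers 3 fell, with sums of 747 to 1001 CPM in Sharpin-cpdm and 874 to 1212 CPM in wild type. Macrophage and epithelial markers had 0 of 7 and 0 of 6 called in the blocked edgeR fit (0 and 1 at an unadjusted p under 0.05, and 0 and 0 in DESeq2 and limma-voom with the block). The epithelial sum was 130 to 330 CPM in Sharpin-cpdm and 233 to 448 CPM in wild type. Of 5 adipocyte markers only Fabp4, which endothelial cells also express, passed the filter, and it fell, while Lep had 0 counts in all 6 libraries. The part of these cells in the levels of the cross-linking genes was not tested.

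Genes with the most similar pattern over the 6 libraries were found by the root mean square difference of mean-centred log2 CPM, among 10379 genes with a mean of at least 5 CPM. These are descriptions, since close matches arise readily over 6 values. Lox lay closest to Ercc1 and Nus1 (0.031 each, against 0.236 for the median gene). Loxl2 lay closest to Pdlim1 (0.076) and Fhdc1 (0.084), against 0.497 for the median gene, and Pdlim1 shared the high second libraries, with 43.3, 78.9 and 37.8 CPM in Sharpin-cpdm pools 1 to 3 and 37.1, 70.8 and 38.9 CPM in wild-type pools 1 to 3. Loxl3 lay closest to Ttk, a mitotic checkpoint kinase (0.035), and Prr11 (0.047), against a median of 0.292, and Loxl4 to Pea15a (0.021) and Cdca4 (0.022), against 0.227. Tgm2 lay closest to Atoh8 (0.092) and Ecscr, an endothelial surface protein (0.095), against 0.458. For Loxl1, Faf2 and Chmp4b lay at 0.012, but Loxl1 itself departed from its own mean by only 0.015, so its closest genes were also steady ones.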

How the data were processed

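Each library has its own deposited table of raw counts, whole numbers listed by gene symbol. Tools named by the submitters' processing notes are TopHat2 2.0.10, HTSeq 0.5.4p3 and bcl2fastq 1.8.4, with the build mm10; of their roles, the annotation, the read length and the strand setting, none is given in the sources used here. The kit was TruSeq RNA v2, per the labels' protocols. The 5 summary rows, between 48.8% and 51.2% of a table's entries, mostly alignments that were not unique, were left out of library sizes and tests.

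Genes were filtered with filterByExpr (edgeR 4.0.16, R 4.3.3), scaled by TMM and tested over all 13442 genes with the quasi-likelihood F-test, two-sided, with Benjamini-Hochberg adjustment and a threshold of 0.05. SE is the absolute log2 fold change over √F, and CPM are of gene counts without TMM factors. DESeq2 1.42.0, limma 3.58.1 (voom), other scalings, no filter, and left-out libraries were alternatives. The labels do not say what a replicate number marks. Deviations from group means correlated at 0.457, 0.809 and 0.737 for same-numbered libraries 1, 2 and 3 and at most at 0.00676 otherwise. Deviations within a group sum to 0, so high same-numbered values by themselves bring lower values otherwise, which are not separate evidence. The numbers were taken to pair libraries, on the data alone, and a fit blocked on the number is given beside the other. A run of the tests on simulated counts had an effect of the replicate number built in. It cannot show whether the numbers pair libraries, and no result given here rests on it. Libraries of a group differed by more than sampling noise, with a chi-square per degree of freedom of at least 16.9.

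Exon lengths, positions and transcripts came from GENCODE M21 (GRCm38), which matched 22844 of 23337 symbols; GC and length were known for 13316 of the tested genes. Members and lists were chosen with earlier results of these data known. Named genes were the members and Sharpin, called genes of the pathway lists (otherwise up to 2 with the smallest p), and the 2 most similar genes per member; marker lists are given by counts. Other genes are named after their values were seen: Col11a1, Col3a1, Col5a3, Col4a1, Col4a2, Fn1, Postn, Bmp1, Atp7a, Ctgf, the macrophage markers Lyz2, Ptprc and Cd68, and Col1a1 and Col1a2 as fibroblast collagens. Called genes are named for the fibroblast and adipocyte markers.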

Additional observations from a re-analysis of the deposited data

How the results depend on the processing

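Over 20 alternatives, 18 left 0 of the 6 cross-linking genes called, and the replicate block with DESeq2 and the replicate block with GC and length offsets called 1 each, Loxl3 (log2 fold change 0.33 and 0.37). Of the 20, however, 10 called 0 genes higher and 0 lower among all genes, so they could call no member. Over all genes the test of genotype alone called 0 higher and 0 lower, DESeq2 2 and 8. With the replicate block, 53 were higher and 284 lower in edgeR, 53 and 288 in DESeq2, 63 and 316 in limma-voom, 56 and 280 with DESeq2 size factors, 160 and 297 with GC and length offsets, and 58 and 307 with total counts, an alternative added after seeing the data. Leaving out 1 pair gave 3 to 140 higher and 41 to 533 lower, with the fewest without pair 3, the most without pair 1, and 9 and 119 without pair 2. The causes were not tested.

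Directions of uncalled members were not stable over all settings. Fits that left out a single library had no block and kept its same-numbered partner. Lox turned to 0.0075 in such a fit, without wild-type replicate 2. In every fit with the block Lox stayed between -0.16 and -0.089, and Loxl4 between 0.11 and 0.17. Loxl1, near 0 throughout, turned to 0.0020 with total counts (0.0014 with the block), 0.04 with GC and length offsets and 0.0013 without wild-type replicate 3. Loxl2 turned to -0.28 without Sharpin-cpdm replicate 2, -0.11 and -0.072 without wild-type replicates 1 and 3, and -0.05 with the block without pair 1. Loxl4 turned to -0.014 and Tgm2 to -0.21 without Sharpin-cpdm replicate 2, and Tgm2 to -0.17 without wild-type replicate 1 and -0.027 with the block without pair 1. Loxl3 kept its direction in all 20, between 0.18 and 0.42, with adjusted p from 0.0325 to 1, and the block without offsets changed the call of no member in edgeR. With the longest transcript as length, an alternative added after seeing the data, the Lox share over all libraries was 54.9% in place of 55.4%. Leaving out single libraries reached -0.25 for Lox, -0.019 for Loxl1, 0.52 for Loxl2, 0.24 for Loxl4 and 0.30 for Tgm2. The counting error was at most 4.65% for any member in any library.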
